A study of Drosophila melanogaster with 9 samples.

Results

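Wild-type Ultrabithorax (Ubx-WT) was set against a nuclear green fluorescent protein (GFP) in Drosophila S2R+ cells, and the response was followed across all expressed genes and gene families. The comparison uses 6 of the 9 libraries of the series, 3 from Ubx-WT cells and 3 from GFP cells, all made from poly(A)-selected RNA. The proteins were expressed through Gal4-UAS under an actin promoter in both groups, so the GFP cells carry the same expression system. The remaining 3 libraries come from cells with Ubx-N51A, a Ubx altered in the DNA-binding face of its homeodomain, and entered the estimate of the spread. The labels give the Ubx proteins a myc tag in one place and GFP in another, and the tag was not settled. Of 4 independent replicates made per group, 3 were kept after a principal component analysis, which can narrow the spread behind the p-values. A word on sorting in the deposited file names is not the same for each group; what it stands for cannot be told apart from the proteins.

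Ubx is a Hox transcription factor. Hox proteins bind DNA through a homeodomain and give the segments of the body axis their identity by raising some genes and lowering others, and Ubx is best known for turning the second pair of flight appendages of the fly into halteres. S2R+ cells descend from the Schneider lines made from late embryos, resemble haemocytes (the blood cells of the fly, which engulf debris and secrete matrix) and differ from their relatives by responding to Wingless.

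Between 41138781 and 66828787 reads fell in genes in the Ubx-WT libraries, and between 39984588 and 51644437 in the GFP libraries. Replicates of a group differed by more than counting noise (chi-square per degree of freedom from 7.98 to 50.9). Over all 9 libraries the leading principal component (55.2% of the variance) placed the Ubx-WT libraries between 7.44 and 9.83 and the GFP libraries between -13.4 and -9.91. The Ubx-N51A libraries lay between 3.01 and 3.89, so this component set GFP apart from both Ubx proteins. It was computed on the 6553 more highly expressed genes only. Ubx itself had 71888, 69408 and 102681 reads in the Ubx-WT libraries and 14, 8 and 89 in the GFP libraries (log2 fold change 10.87, edgeR adjusted p = 2.39e-10, and 12.49 without GFP replicate 3), and the counts do not separate the introduced gene from the cells' own. The haemocyte label was borne out in part. The GATA factor gene srp averaged 225 CPM (counts per 1000000 reads in genes, after scaling between libraries) with Ubx-WT and 232 CPM with GFP, and the peroxidasin gene Pxn 461 CPM with Ubx-WT and 466 CPM with GFP, while for NimC1, a receptor of mature plasmatocytes, 13 reads were counted in all Ubx-WT libraries and 2 in all GFP libraries. Some defining markers of other cells were near 0 in both groups, with 15 reads in Ubx-WT cells and 20 in GFP cells for the glial factor repo, 20 in Ubx-WT cells and 7 in GFP cells for muscle myosin Mhc, and 1 in Ubx-WT cells and 0 in GFP cells for the fat body storage protein Lsp2. The neuronal RNA-binding protein gene elav averaged 45.4 CPM in Ubx-WT cells and 38.1 CPM in GFP cells, a difference that did not pass. The muscle factor gene Mef2 averaged 76.8 CPM with Ubx-WT and 76 CPM with GFP, and the epithelial polarity gene crb 95.7 CPM with Ubx-WT and 87.6 CPM with GFP. Summed over whole marker lists, muscle genes reached 1012 to 1067 CPM with Ubx-WT against 978 to 1031 CPM with GFP, and glia genes 592 to 596 CPM with Ubx-WT against 622 to 634 CPM with GFP.

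Across 9207 genes with enough reads to test, 803 rose with Ubx-WT (8.72%) and 721 fell (7.83%) at a Benjamini-Hochberg adjusted p under 0.05 by edgeR, and a gene is said to have risen or fallen only on that test. Together these are 16.6% of the genes tested, and the median log2 fold change of all genes was 0.00. Of the calls, 311 were of at least 2-fold (3.38% of genes), and 270 were rises of at least 2-fold (2.93% of genes) and 41 were falls of at least 2-fold (0.445%). The counts depend on single libraries. Falls numbered 444 without GFP replicate 1, 416 without GFP replicate 2, 477 without Ubx-WT replicate 2 and 421 without Ubx-WT replicate 3, and all calls came to 1015 when GFP replicate 2 was left out and 990 when Ubx-WT replicate 3 was, while rises stayed between 569 and 828. In bulk RNA, fewer cells with a transcript and less of it per cell cannot be told apart.

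The share of genes that rose was highest among weakly expressed genes, and the share that fell was highest among abundant ones. In the middle of the range, between 10 and 100 CPM, 296 of 3822 genes rose (7.74%) and 295 fell (7.72%). Among genes with a mean under 1 CPM over the 9 libraries, 228 of 1638 rose (13.9%) and 26 fell (1.59%), and the rises had a median log2 fold change of 1.66. Between 100 and 1000 CPM, 76 of 2117 rose (3.59%) and 324 fell (15.3%), with medians of 0.19 among the rises and -0.19 among the falls. Over 1000 CPM, 23 of 131 genes fell and Ubx was the only rise. The large rises were thus mostly in weakly expressed genes, and the many falls of abundant genes were small. Summed over genes, the 802 rises other than Ubx held 29374 ± 503 CPM with Ubx-WT and 24289 ± 150 CPM with GFP (SD, n = 3 each), a gain of 5085 CPM. The 721 falls held 158843 ± 4192 CPM with Ubx-WT and 184533 ± 3004 CPM with GFP, a difference of -25691 CPM. The 7683 uncalled genes held 786009 ± 3006 CPM with Ubx-WT and 803699 ± 5209 CPM with GFP. That is a difference of -17690 CPM at a median fold of 0.999. The sums of rises and falls describe genes that the test itself picked, and these differences do not measure a net loss of transcripts.

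**Figure D1:**
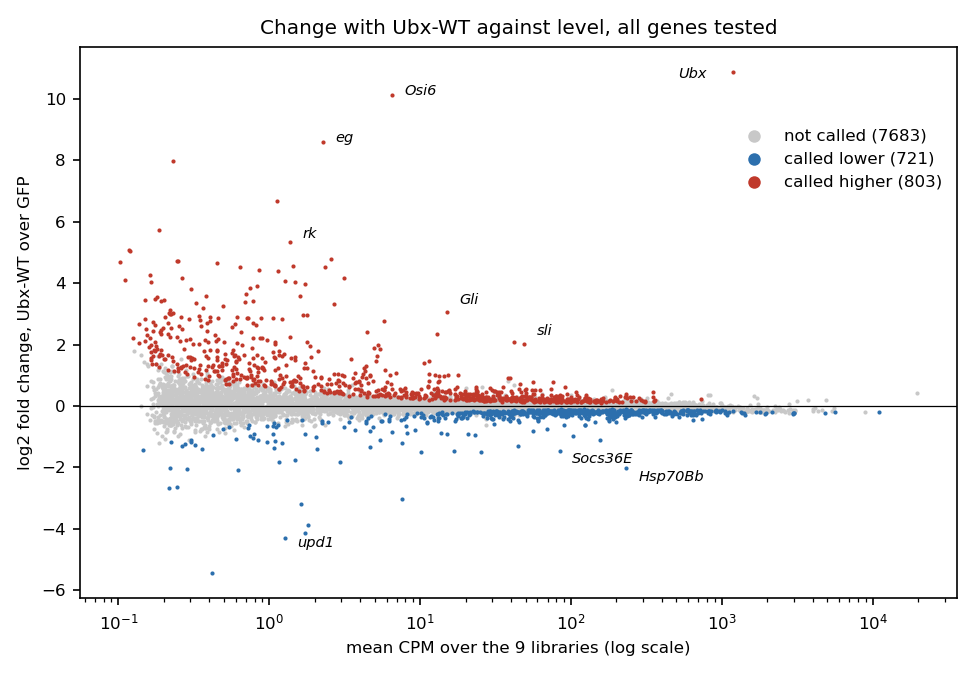
Log2 fold change of Ubx-WT over GFP (vertical axis) against the mean CPM over the 9 libraries (horizontal axis, log scale), 1 point for each of 9207 genes, coloured by the edgeR call. Of the 803 rises, those of weakly expressed genes fan out to the upper left. Of the 721 falls, those of abundant genes form a flat band just under 0.

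The share of genes that rose was higher among long genes than among short ones, which is given here as a description with no test. Span here is the distance between the first and last base of a gene in the annotation, introns included. With the genes in 10 classes of equal size, in the shortest class (65 to 890 bp) 29 of 904 rose (3.21%), and in the longest (16580 to 434041 bp) 197 of 902 rose (21.8%), while the share that fell lay between 4.76% and 9.4% in every class. The order held within classes of level. Under 1 CPM the share that rose was 7.02% for spans under 2000 bp and 32.2% for spans over 20000 bp, and between 10 and 100 CPM it was 2.92% and 24.9%. Over 100 CPM it was 0.498% and 10.3%, and there the short genes fell most often, in 21.9% of cases. With a correction for summed exon length in each library, 5.6% of genes under 2000 bp and 21.6% of genes over 20000 bp rose. Leaving out single libraries gave 17.5% to 24.6% for the genes over 20000 bp.

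**Figure D2:**
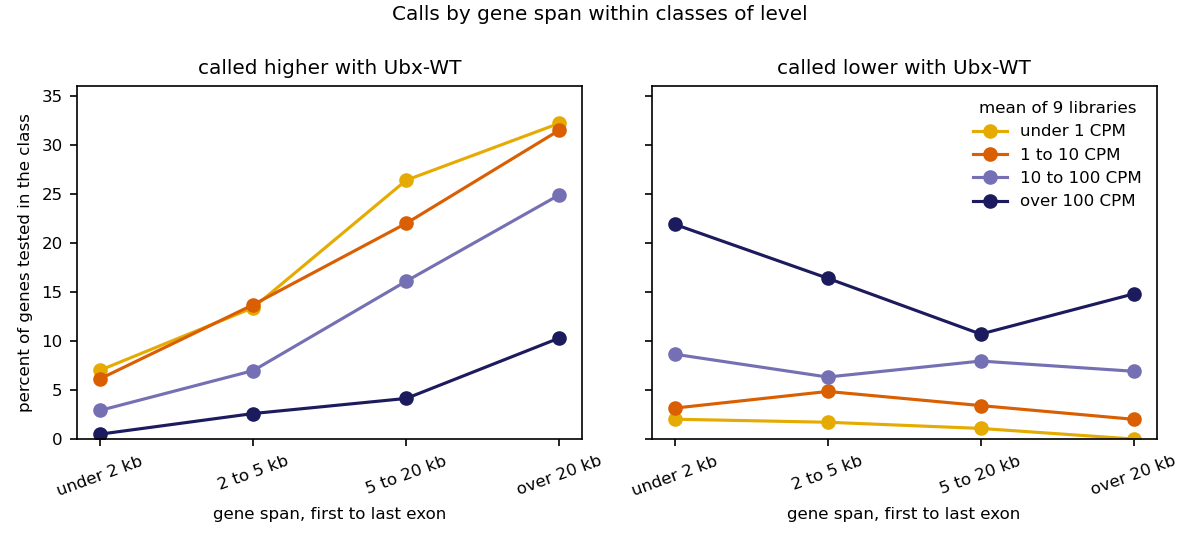
Percent of tested genes called higher (left) and lower (right) with Ubx-WT, by gene span in 4 classes, with 1 line for each class of mean level. The share called higher climbs with span in all 4 classes of level, to 32.2% for the longest genes under 1 CPM, and the share called lower does so in none of them.

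The 5 large chromosome arms gave similar shares, with 8.21% (3R) to 9.75% (2R) of genes rising and 6.55% (X) to 8.3% (3R) falling. On the small chromosome 4, 6 of 86 genes rose and 0 fell, and the median log2 fold change was 0.14. The 4 rises named here for that chromosome are unc-13, which primes synaptic vesicles (288, 348 and 300 CPM with Ubx-WT against 236, 261 and 286 CPM with GFP), Taf3, a subunit of the general factor TFIID (0.31), the immunoglobulin gene dpr7 (0.46) and the zinc finger homeodomain gene zfh2 (1.14). The first 3 lost their calls when single libraries were left out. All 13 protein genes of the mitochondrial genome had positive fold changes, with a median of 0.36, and 0 passed the edgeR test, with 0 at an unadjusted p under 0.05 and 0 called by DESeq2. Mitochondrial genes took 2.77%, 4.91% and 3.34% of reads with Ubx-WT and 1.92%, 3.06% and 3.43% with GFP, ranges that overlap.

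Several genes that were silent or nearly so in GFP cells were transcribed with Ubx-WT. Osi6 (FBgn0027527; 3R, 6234708 to 6237181, plus strand, dm6), a membrane protein of the Osiris family that insects use in cells that secrete cuticle, had 862, 906 and 1364 reads in the Ubx-WT libraries and 0, 0 and 2 in the GFP libraries. eg (FBgn0000560; 3L, 21808703 to 21817600, plus strand), a transcription factor of the nuclear receptor class known from serotonin neurons, had 289, 338 and 464 reads with Ubx-WT and 0, 1 and 1 with GFP. CG17290 stood at 3.23, 3.53 and 3.17 CPM with Ubx-WT and at 0.0454, 0.0255 and 0.0195 CPM with GFP (log2 fold change 6.68, edgeR adjusted p = 1.83e-08). These 3 genes alone lay under 0.1 CPM in every GFP library and over 1 CPM in every Ubx-WT library, and 0 genes did the reverse. The ratio of summed reads, scaled for library size, was 1310 for Osi6 (95% exact binomial interval 362 to 10826, counting error only) and 456 for eg (126 to 3774). A further 6 genes had 0 reads in all GFP libraries and at least 5 in every Ubx-WT library. Among them C901 had 106 reads in all with Ubx-WT, at least 29.6-fold higher with 3 reads over the GFP group as the floor, and the cell recognition genes DIP-eta and side-VIII had 21 and 31.

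Most Osiris genes stand in a row on 3R, and 22 of the family were counted. Apart from Osi6 and Osi19, every member had at most 17 reads over the Ubx-WT libraries, and the nearest neighbours Osi5 and Osi7 had 2 each with Ubx-WT and 0 with GFP. For Osi12, 17 reads in Ubx-WT cells and 0 in GFP cells were too few to be tested. Osi19, the other member that passed the filter, had 7.34, 6.12 and 6.96 CPM with Ubx-WT against 7.7, 7.59 and 7.41 CPM with GFP, a log2 fold change of -0.15 that did not pass (edgeR adjusted p = 0.227).

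**Figure D3:**
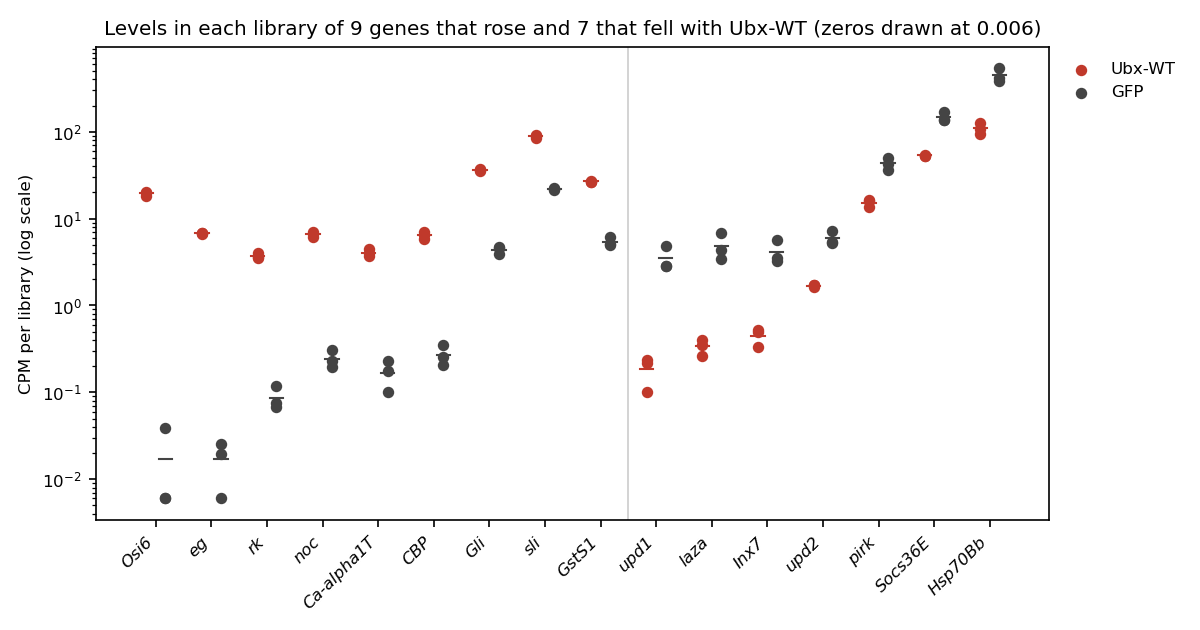
CPM in each library (vertical axis, log scale) of 9 genes that rose, left of the grey line, and 7 that fell, right of it; red points are the 3 Ubx-WT libraries, grey points the 3 GFP libraries, and bars their means. The groups do not overlap for any gene shown, as for 35.4% of all genes tested, and most of these genes were named by a rule that required it. Libraries with 0 reads are drawn at 0.006 CPM.

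Several developmental transcription factors rose, most of them to low levels. Of 16 tested homeobox genes outside the Hox cluster 5 rose and 0 fell (31.2%, against 8.72% of all genes), with a median log2 fold change of 0.24. Of all genes from 1 to 10 CPM, 6.15% of those under 2000 bp and 31.5% of those over 20000 bp rose. The part of level and span in this share and in those of the lists below was not tested. The POU gene pdm3 stood at 2.57, 1.74 and 2.17 CPM with Ubx-WT and at 0.227, 0.102 and 0.0975 CPM with GFP, and btn, known from mesodermal cells of the midline, at 4.09, 3.29 and 3.33 CPM with Ubx-WT and 1.02, 0.662 and 0.839 CPM with GFP. The groups did not overlap for either gene, as for 35.4% of all genes. The pair-rule gene eve rose by 2.81 and the neural column gene vnd by 2.45, with means of 0.105 and 0.0657 CPM in GFP cells. Beside Ubx, the Hox genes held 1 other tested member, Abd-B, with 53 reads in Ubx-WT cells and 1 in GFP cells.

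Among 28 developmental zinc finger genes 7 rose (25%, against 8.72% of all genes) and 3 fell (10.7%, against 7.83%). The related repressors noc and elB, which stand next to each other on 2L, both rose: noc averaged 6.57 CPM with Ubx-WT and 0.243 CPM with GFP (log2 fold change 4.77, SE 0.161, edgeR adjusted p = 9.27e-10), and elB 1.43 CPM with Ubx-WT and 0.261 CPM with GFP (2.41, SE 0.256). The odd-skipped relative bowl was at 15, 16.7 and 16 CPM with Ubx-WT and 5.5, 6.09 and 6.49 CPM with GFP, and tio and jim rose by 1.81 and 0.28. The 3 falls were in GATA factors and their partner: GATAe (-0.34), pnr (-0.16) and ush (-0.12), a regulator of blood cell number. Only pnr of these 3 held its call without each library in turn. The T-box gene bi, a wing patterning gene, rose by 3.11 and the bHLH-PAS gene ss, which specifies antenna and leg parts, by 2.47, while the Notch and segmentation repressor hry fell, with means of 105 CPM with Ubx-WT and 137 CPM with GFP.

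Several receptors of the cell surface rose. In a list of 26 G protein-coupled receptors, Frizzled proteins and their peptide ligands, 8 rose and 3 fell. These are 30.8% and 11.5%, against 8.72% and 7.83% of all genes. The bursicon receptor gene rk, which starts the hardening of cuticle, was at 3.61, 4.03 and 3.5 CPM with Ubx-WT and 0.0682, 0.0764 and 0.117 CPM with GFP (log2 fold change 5.34, SE 0.231, edgeR adjusted p = 9.21e-09). The Wingless receptor gene fz2 was at 17.2, 18.3 and 18 CPM with Ubx-WT and 9.54, 9.25 and 8.46 CPM with GFP (0.97), and fz rose by 0.64. The planar polarity cadherin stan rose by 2.08, the octopamine receptor gene Octbeta2R by 1.53, and mthl9, of the methuselah-like family, by 1.67. In that family 3 of 10 rose and 2, mthl3 and mthl4, fell by 0.39 each. Of the falls in the receptor list, Ilp8 and Gpb5 are peptide hormones rather than receptors, and both stayed under 1 CPM.

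Ion channel genes rose in 11 of 36 cases (30.6%, against 8.72% of all genes) and fell in 2 (5.56%, against 7.83%). Of all genes from 1 to 10 CPM with spans over 20000 bp 31.5% rose, and the part of level and span was not tested. The low-voltage calcium channel gene Ca-alpha1T stood at 4.44, 3.71 and 4.04 CPM with Ubx-WT and at 0.227, 0.102 and 0.176 CPM with GFP (log2 fold change 4.55, SE 0.225, edgeR adjusted p = 3.46e-08). The sodium channel relative NaCP60E averaged 7.1 ± 0.594 CPM with Ubx-WT and 2.88 ± 0.163 CPM with GFP (SD, n = 3 each, 1.30). In both genes the lowest Ubx-WT library was above the highest GFP library. The potassium channel genes Elk and eag rose by 2.78 and 0.57. Smaller rises in the list were in the store sensor gene Stim (0.20) and the IP3 receptor gene Itpr (0.19), and the ryanodine receptor gene RyR rose by 1.51. Of 14 tested calcium-binding protein genes 1 rose, CBP (4.53), and 1 fell, Calr (-0.27), shares under those of all genes; the rises numbered 3 without GFP replicate 3 and 2 without GFP replicate 1, GFP replicate 2, Ubx-WT replicate 1 or Ubx-WT replicate 3. The falls, Ih (-0.24) and Task7 (-1.16), did not hold without single libraries: the count of falls was 0 without GFP replicate 1, GFP replicate 3, Ubx-WT replicate 2 or Ubx-WT replicate 3. The list of neuron genes, 15 tested, had 4 rises and 0 falls and a summed level of 704 to 811 CPM with Ubx-WT against 646 to 728 CPM with GFP, and its part in the channel and guidance results was not tested. Its count of rises was 1 without GFP replicate 1, GFP replicate 2 or Ubx-WT replicate 2, and 2 without Ubx-WT replicate 3.

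Septate junctions seal insect epithelia and wrap nerves. Of 33 genes of these junctions 9 rose (27.3%, against 8.72% of all genes) and 1 fell, with a median log2 fold change of 0.10. Gli (FBgn0001987; 2L, 15756002 to 15762758, minus strand), which encodes Gliotactin of the corners where cells meet, was at 37.7, 35.4 and 36.6 CPM with Ubx-WT and 3.95, 4.69 and 4.54 CPM with GFP (3.06, SE 0.0744, edgeR adjusted p = 5.27e-11). Its change far exceeded the others. M6, also of the corners, averaged 38.6 CPM with Ubx-WT and 30 CPM with GFP (0.36), the immunoglobulin protein gene Lac 65.8 CPM with Ubx-WT and 49.7 CPM with GFP (0.40), and the claudin-like gene sinu 13.9 CPM with Ubx-WT and 10.3 CPM with GFP (0.43). The lipid phosphate phosphatase gene wun2, needed for septate junctions of the trachea, was at 31.2, 30.7 and 32.6 CPM with Ubx-WT and 20, 12.8 and 13.9 CPM with GFP (1.02). The fall was in Ssk (-0.30), a protein of the smooth septate junctions of the gut, and it did not hold without single libraries. The list of epithelium and trachea genes had 1 rise and 0 falls in 14 (0 rises without GFP replicate 3 or Ubx-WT replicate 2, and 2 without GFP replicate 2), with a summed level of 516 to 557 CPM with Ubx-WT against 489 to 511 CPM with GFP, and its part in these rises was not tested.

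Axon guidance genes rose in 9 of 31 cases (29%, against 8.72% of all genes) and fell in 2, with a median of 0.15. The part of gene level and span in this share was not tested. The ligand gene sli, which encodes Slit, was at 92.4, 85.1 and 88.4 CPM with Ubx-WT and 21.2, 21.7 and 22.5 CPM with GFP (2.02), and its receptor robo2 rose by 0.26. The ligand NetB and its receptor fra rose by 0.81 and 0.22. In both of these named pairs the ligand gene rose by more than the receptor gene, and the call of fra was lost without Ubx-WT replicate 3. Fas2, which holds axons in bundles, averaged 4.65 CPM with Ubx-WT and 2.38 CPM with GFP (0.97), and the receptor phosphatases Ptp10D and Ptp52F rose by 0.34 and 1.30. The kinase gene Abl, which acts inside the cell behind several guidance receptors, had 441, 431 and 436 CPM with Ubx-WT against 525, 540 and 571 CPM with GFP, a fall of 0.32 on the log2 scale. The list's other fall, in ena, was lost without single libraries.

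Cell adhesion genes rose in 11 of 38 cases (28.9%, against 8.72% of all genes) and fell in 2, with a median of 0.24. Here too the part of gene level and span was not tested. The count of rises was 6 without GFP replicate 1 or GFP replicate 2 and 7 without Ubx-WT replicate 2 or Ubx-WT replicate 3. N-cadherin, CadN, was at 1.57, 1.64 and 1.71 CPM with Ubx-WT and 0.25, 0.178 and 0.234 CPM with GFP (2.87, SE 0.224), and the immunoglobulin gene tei rose by 1.33. The falls were in Nrt and in Ama, which encodes the secreted ligand of the Nrt protein. Ama had 6.94, 5.43 and 5.73 CPM with Ubx-WT against 14.2, 16.6 and 19.4 CPM with GFP (-1.48), and Nrt had 3.92, 3.43 and 3.7 CPM with Ubx-WT against 5.52, 5.3 and 4.8 CPM with GFP (-0.50). All Ubx-WT libraries lay below all GFP libraries for both.

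Matrix genes went both ways, with 6 rises and 4 falls in 29. The integrin alpha subunit if was at 52.7, 58.9 and 54 CPM with Ubx-WT and 34.7, 38.8 and 40.3 CPM with GFP (0.54), and its ligand gene Tig rose by 0.33, a call lost without single libraries. Nidogen, Ndg, rose by 0.74 and the mindin relative mspo by 3.34. The falls included the integrin subunit ItgaPS4 (-0.52) and Pax (-0.31) and rhea (-0.16), which link integrins to actin, and the falls of the list numbered 2 without GFP replicate 3 or Ubx-WT replicate 3. Kal1, a secreted anosmin, was at 71.3, 63.3 and 64 CPM with Ubx-WT and 17.2, 15.4 and 14.7 CPM with GFP, a log2 fold change of 2.07. Among proteases that act on matrix and peptides, the neprilysin genes Nep1 and Nep2 and the ADAMTS gene stl rose by 3.26, 2.85 and 2.91, whereas Mmp1, its inhibitor gene Reck and the ADAM gene Meltrin fell by 0.38, 0.23 and 0.29. The list of 13 had 3 rises and 3 falls, and 5 rises without GFP replicate 2. Of 9 tested cuticle genes of the Cpr family, Cpr51A (2.12 CPM with Ubx-WT and 0.291 CPM with GFP) and Cpr62Bc rose and Cpr49Ac (0.263 CPM with Ubx-WT and 4.82 CPM with GFP) fell.

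JAK-STAT signalling runs from Unpaired ligands through the receptor Dome to STAT, which induces its own inhibitor Socs36E. Of its 12 genes 5 fell (41.7%, against 7.83% of all genes) and 1 rose, with a median of -0.03. All 3 ligand genes fell. upd1 had 0.238, 0.219 and 0.102 CPM with Ubx-WT against 2.86, 2.83 and 4.82 CPM with GFP (-4.31, SE 0.324, edgeR adjusted p = 1.57e-06). upd2 had 1.62, 1.7 and 1.74 CPM with Ubx-WT against 5.2, 5.45 and 7.14 CPM with GFP (-1.82), and upd3 had 4.52, 3.71 and 3.82 CPM with Ubx-WT against 8.29, 7.72 and 9.79 CPM with GFP (-1.11). No Ubx-WT library reached the lowest GFP library for any of them. Socs36E (2L, 18138675 to 18152417, minus strand) had 53.3, 52.6 and 54.3 CPM with Ubx-WT against 136, 135 and 168 CPM with GFP (-1.45, SE 0.0761). The receptor gene dome fell by 0.20, a call that most single libraries could end, and et, which encodes a shortened receptor that dampens the pathway, rose by 0.73.

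The 3 ligand genes stand side by side on the X chromosome, and genes beside them fell as well. Among the tested genes upd2, upd3, upd1, CG6023 and CrebB form an unbroken run of falls (X, 18240654 to 18377864), the longest found among falls. CG6023 had 0.0951, 0.0997 and 0.0875 CPM with Ubx-WT against 0.432, 0.459 and 0.839 CPM with GFP (-2.62), while CrebB, a cAMP-responsive factor, fell by only 0.13. The call of CrebB, and with it the length of the run, was lost without GFP replicate 1 or GFP replicate 2. Of the 10 other tested genes within 100 kb of upd1, 5 fell and 1 rose. Among the 5 falls those of CrebB and betaCOP (-0.22) did not hold without single libraries. The rise was in Tsf1, a transferrin (2.16, 1.6 and 1.27 CPM with Ubx-WT against 0.182, 0.127 and 0.332 CPM with GFP, 2.88).

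**Figure D4:**
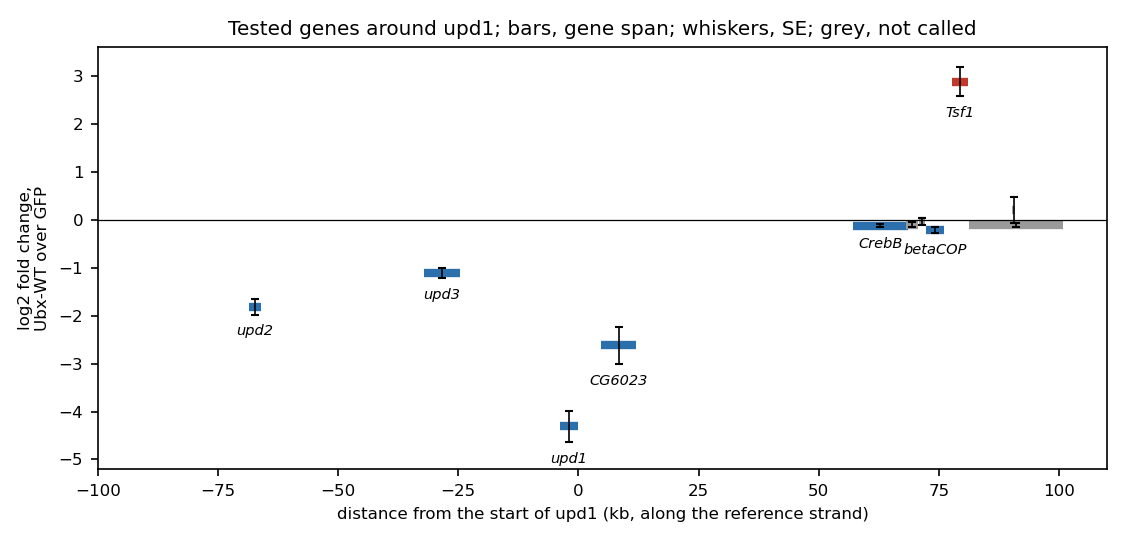
Log2 fold change of Ubx-WT over GFP (vertical axis) of the tested genes around upd1, by distance in kb from its start (horizontal axis); bars give the span of each gene, whiskers the standard error, blue falls, red rises and grey genes not called. The 3 upd genes and CG6023 lie between -4.31 and -1.11, and Tsf1 at 2.88 is the only rise.

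Growth factor ligands changed in several pathways. The 3 ligands of Pvr, the PDGF and VEGF receptor of fly haemocytes, differed in sign: Pvf1 rose, with 1.93, 1.78 and 1.74 CPM with Ubx-WT against 0.114, 0.153 and 0.156 CPM with GFP (3.65), whereas Pvf2 had 65, 79.8 and 82.2 CPM with Ubx-WT against 138, 142 and 168 CPM with GFP (-0.98). Pvf3 had 4.99, 5.56 and 5.28 CPM with Ubx-WT against 11, 11.8 and 13.8 CPM with GFP (-1.21). These genes were listed with the JNK genes, of which 7 of 19 fell (36.8%, against 7.83% of all genes) and 3 rose (15.8%, against 8.72%). The TNF receptor gene wgn rose by 0.51 and Gadd45, a stress gene of the JNK cascade, fell by 0.40. The falls numbered 4 without GFP replicate 1 or GFP replicate 2 and 3 without Ubx-WT replicate 3, and those of the AP-1 genes kay (-0.18) and Jra (-0.15) were among the calls lost.

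In the Dpp pathway, the BMP route of the fly, 6 of 23 genes rose (26.1%, against 8.72% of all genes) and 2 fell (8.7%, against 7.83%). The receptor gene wit was at 2.04, 1.64 and 1.74 CPM with Ubx-WT and 0.432, 0.561 and 0.546 CPM with GFP (1.80), and the signal transducer Mad rose by 0.19. The extracellular regulators sog and tok rose by 0.55 and 1.01, and the glypican gene dally fell by 0.38; the 2 falls were 1 without each library except GFP replicate 2. In the Wingless pathway 3 of 22 rose, the receptors fz2 and fz and their partner arr (0.26), and the feedback inhibitor nkd fell, with 9.03, 10.3 and 11.3 CPM with Ubx-WT against 15.4, 16.8 and 23.8 CPM with GFP (-0.87). Of 16 Hedgehog genes the receptor component smo (0.20) and shf (1.04), needed for the spread of the ligand, rose. Notch genes gave 2 rises, the glycosyltransferase fng (0.91) and sca (2.91), and 2 falls in 22, which numbered 0 without GFP replicate 2. The shares that rose were 13.6% for Wingless, 12.5% for Hedgehog and 9.09% for Notch genes, and those that fell 4.55%, 0% and 9.09%. Of all genes 8.72% rose and 7.83% fell, so the Notch shares were near those of all genes.

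EGF receptor and FGF genes gave 4 rises (14.3%, against 8.72% of all genes) and 6 falls (21.4%, against 7.83%) in 28. On the FGF side the mesodermal receptor gene htl and its adaptor stumps rose by 2.09 and 1.76. On the EGF receptor side the ligand gene vn rose (4.36 CPM with Ubx-WT and 2.61 CPM with GFP), while the feedback inhibitor aos had 9.91, 10.7 and 12 CPM with Ubx-WT against 17.7, 18.6 and 25.5 CPM with GFP (-0.92), and RasGAP1 (-0.20) and the ETS genes aop (-0.20) and pnt (-0.17) fell slightly. Thus Socs36E, nkd and aos, each known as a feedback inhibitor induced by its own pathway, all fell, a grouping made after their values were seen. Hippo genes gave 0 rises and 1 fall in 17, Diap1, which most single libraries could end.

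Humoral immunity runs through the Toll and Imd pathways, which end in NF-kappaB factors. Toll pathway genes rose in 5 of 16 cases (31.2%) and none fell: the ligand relative spz6 by 2.54, the receptor Toll-7 by 1.57, the serine proteases grass and modSP by 0.48 and 0.32 and the NF-kappaB factor Dif by 0.24. Toll-7 stood at 1.95, 2.59 and 2.49 CPM with Ubx-WT and at 0.886, 0.943 and 0.585 CPM with GFP, and modSP alone lost its call without single libraries, each of the 6. In the list of peptidoglycan receptors and the Imd pathway 4 of 25 fell and 0 rose. The inhibitor pirk had 13.6, 16.2 and 16.1 CPM with Ubx-WT against 42.6, 36.6 and 50.4 CPM with GFP (-1.49, SE 0.101), and the amidase gene PGRP-SC2 was lower still, at 0.0146 to 0.0475 CPM with Ubx-WT against 0.909 to 1.6 CPM with GFP. The falls of the list numbered 2 without GFP replicate 1. Of 10 tested antimicrobial peptide genes CecA1 (-1.83), CecB (-1.12) and AttD (-2.09) fell, all at under 3 CPM in every library, and 0 rose. The opsonin gene Tep2 had 54.7, 60.5 and 56.3 CPM with Ubx-WT against 85.7, 93.8 and 111 CPM with GFP (-0.76), and Sting, a sensor of cyclic dinucleotides, rose, with 382, 455 and 426 CPM with Ubx-WT against 290, 291 and 337 CPM with GFP (0.46). The haemocyte list had 2 rises and 4 falls in 24 and a summed level of 4090 to 4241 CPM with Ubx-WT against 4270 to 4522 CPM with GFP. Its part in these falls was not tested, and its 4 falls were 1 without GFP replicate 2 or Ubx-WT replicate 3 and 2 without GFP replicate 3 or Ubx-WT replicate 2. Its 2 rises were 0 without GFP replicate 2 and 1 without each of the other 5 libraries.

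**Figure D5:**
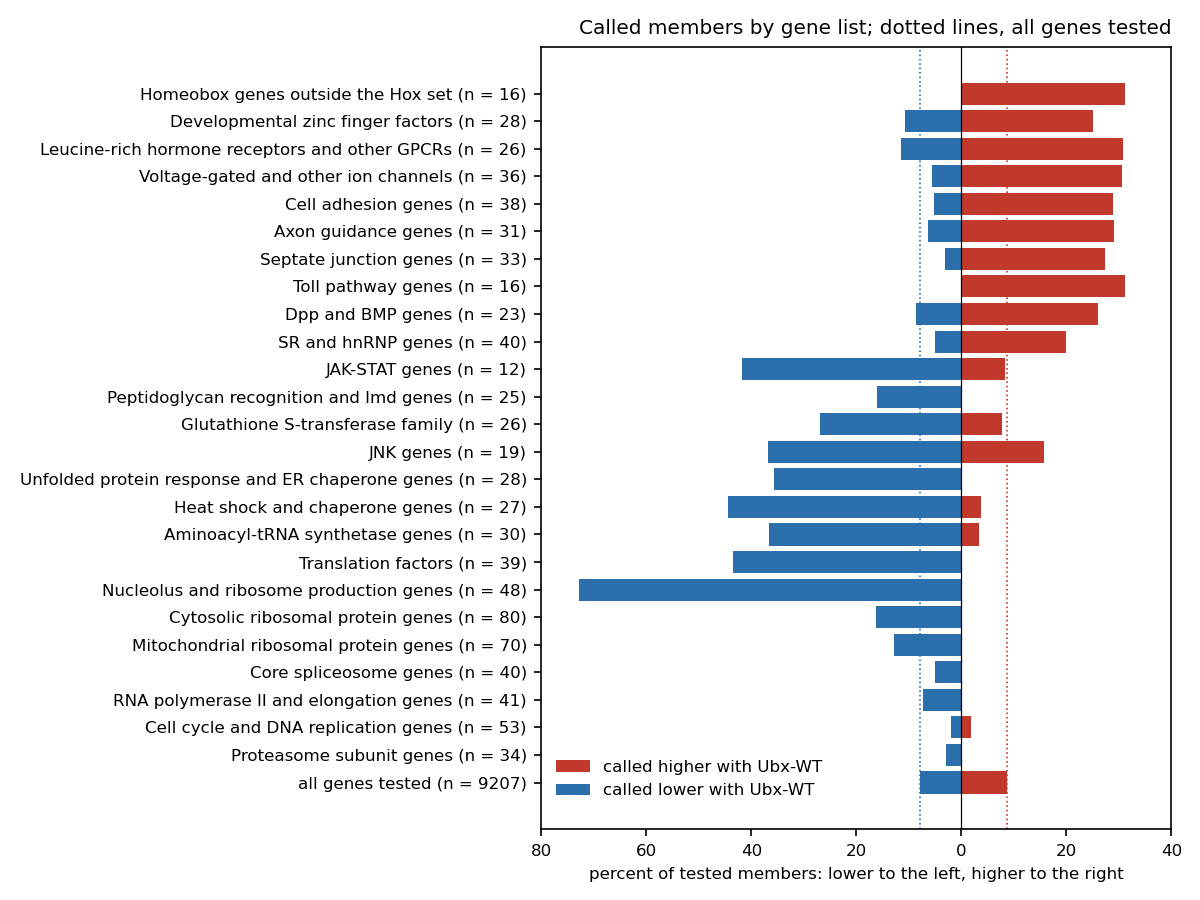
Percent of the tested members of 25 gene lists, and of all genes tested, that were called higher (red, right) or lower (blue, left) with Ubx-WT; dotted lines mark the shares of all genes, 8.72% higher and 7.83% lower. The homeobox, zinc finger, channel, septate junction and guidance lists reach 25% to 31.2% higher, and the nucleolus list reaches 72.9% lower. The lists are not matched to all genes for level or span.

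Many genes of the machinery that makes protein fell by small amounts. Of 48 genes of the nucleolus and ribosome production 35 fell (72.9%) and 0 rose, every member had a negative fold change, and the median was -0.21. Members that fell include the box C/D snoRNP genes nop5 (180, 158 and 166 CPM with Ubx-WT against 234, 222 and 218 CPM with GFP, -0.42), Fib (-0.38) and Nop56 (-0.30), bys (-0.36) of small subunit assembly and Surf6 (-0.30). The count of falls was 25 to 34 without each library. The RNAs those snoRNPs carry were counted in part: of 72 tested small nucleolar RNA genes 0 rose and 0 fell by edgeR (4 at an unadjusted p under 0.05, 0 called by DESeq2), with a median of -0.12, though poly(A) selection recovers such RNAs poorly. Of 30 aminoacyl-tRNA synthetase genes 11 fell, all of them among the cytosolic enzymes, such as ThrRS (441, 418 and 440 CPM with Ubx-WT against 516, 508 and 511 CPM with GFP, -0.24), and 1 rose, the mitochondrial AsnRS-m (0.25), whose call was lost without GFP replicate 2 or Ubx-WT replicate 2.

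Other protein synthesis lists leaned the same way with calls that depended on single libraries. Of 39 translation factors 17 fell and 0 rose, with a median of -0.15. Those that kept their calls without each library in turn include eIF2alpha (-0.25), eIF3e (-0.21), eEF1delta (-0.20) and the release factor eRF1 (-0.20). The falls numbered 7 without GFP replicate 1, 6 without GFP replicate 2, 7 without Ubx-WT replicate 2 and 6 without Ubx-WT replicate 3. Of 80 cytosolic ribosomal protein genes 78 had negative fold changes (median -0.16) but 13 fell by the test (16.2%). Among all genes over 1000 CPM 17.6% fell, with a median of -0.14. Between 100 and 1000 CPM 15.3% fell, with a median of -0.04. The share of this list that fell was thus near that of abundant genes in general. Its falls numbered 2 without GFP replicate 1, GFP replicate 2 or Ubx-WT replicate 2, 5 without Ubx-WT replicate 3 and 28 without Ubx-WT replicate 1. RpS9, at 416, 382 and 439 CPM with Ubx-WT and 515, 500 and 477 CPM with GFP, and RpL24-like kept their calls in those 6 fits. Of 70 mitochondrial ribosomal protein genes 9 fell, and the count was 1 without GFP replicate 1, 3 without GFP replicate 2, 2 without Ubx-WT replicate 2 or Ubx-WT replicate 3 and 15 without Ubx-WT replicate 1. The median was -0.11.

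Protein folding genes fell too. In the endoplasmic reticulum list 10 of 28 fell (35.7%) and 0 rose, among them the calcium-binding chaperone Calr (1819, 1707 and 1826 CPM with Ubx-WT against 2243, 2139 and 2086 CPM with GFP, -0.27), the glucose-regulated protein Gp93 (-0.25) and Xbp1 (-0.22), the transcription factor of the unfolded protein response. In the cytosolic chaperone list 12 of 27 fell and 1 rose. Hsp70Bb had 93.1, 109 and 126 CPM with Ubx-WT against 382, 417 and 535 CPM with GFP (-2.02, SE 0.119, edgeR adjusted p = 1.78e-07), the largest fall of the list, and its near-identical copies make the split of reads among Hsp70 genes uncertain. Of the subunits of the CCT ring, which folds actin and tubulin, CCT4 and CCT7 fell by 0.23 and 0.24, and the falls of CCT1, CCT3, CCT5 and CCT6, of 0.21 to 0.23, did not hold without single libraries. The falls of the list numbered 6 without GFP replicate 1 or GFP replicate 2, 7 without Ubx-WT replicate 2 and 5 without Ubx-WT replicate 3.

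Some large gene groups held few calls, where 8.72% of all genes rose and 7.83% fell. Of 53 cell cycle and DNA replication genes 1 rose and 1 fell (1.89% each), and of 34 proteasome subunits 1 fell (2.94%). Of 67 nuclear respiratory chain genes 1 rose and 1 fell (1.49% each). Of 21 nuclear pore genes 0 were called by edgeR (2 at an unadjusted p under 0.05, 0 by DESeq2). The 41 RNA polymerase II and elongation genes had 0 rises and 3 falls (7.32%), a share of falls near that of all genes. The medians of these groups lay between -0.07 and 0.03. Fold changes were negative for 59 of the 67 respiratory chain genes and 29 of the 34 proteasome subunits. They were negative for 16 of the 21 nuclear pore, 29 of the 41 polymerase and 19 of the 53 cell cycle genes. Single libraries moved these counts: without Ubx-WT replicate 1 the respiratory chain list had 10 falls and the proteasome 3, and without GFP replicate 1 the polymerase list, the proteasome and the respiratory chain had 0 falls. Among actin genes 7 of 46 fell, led by the filamin gene cher (481, 464 and 483 CPM with Ubx-WT against 585, 597 and 633 CPM with GFP, -0.35) and Act42A (-0.24), and 2 rose, the formin gene form3 (3.56 CPM with Ubx-WT and 0.292 CPM with GFP) and the muscle actin Act87E. The share of actin genes that fell, 15.2%, was near the 15.3% of all genes between 100 and 1000 CPM. The actin falls numbered 3 without GFP replicate 1 or GFP replicate 2, 4 without Ubx-WT replicate 2 and 2 without Ubx-WT replicate 3.

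Splicing is guided by RNA-binding proteins that choose sites and carried out by a core machinery. Of 40 SR, hnRNP and other RNA-binding protein genes 8 rose (20%) and 2 fell, with a median of -0.01. The falls were in the hnRNP genes HnRNP-K and Hrb98DE (-0.14 each), and both calls were lost without single libraries. Of 40 core spliceosome genes 0 rose and 2 fell, with a median of -0.07. The difference between the lists was not tested. The rises that held were in sm, at 34.2, 35.9 and 35 CPM with Ubx-WT and 23.2, 25.5 and 24.8 CPM with GFP (0.52), bru2 (0.93), bol (0.39), Syp (0.39) and mub (0.26). The rises of Sxl (0.30), mbl (0.22) and how (0.16) were lost without single libraries, and the list had 5 rises and 0 falls without GFP replicate 1, GFP replicate 2 or Ubx-WT replicate 2. Sf3b3, of the U2 snRNP, fell by 0.27, with 527, 497 and 520 CPM with Ubx-WT against 623, 614 and 622 CPM with GFP. The core list had 1 fall without GFP replicate 1, GFP replicate 2 or Ubx-WT replicate 3 and 5 without Ubx-WT replicate 1. Chromatin regulators of the Polycomb, trithorax and Brahma groups gave 3 small rises and 0 falls in 43, of which jing (0.37) kept its call without each library; the count was 1 without GFP replicate 1, GFP replicate 2, Ubx-WT replicate 2 or Ubx-WT replicate 3.

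Detoxification genes went both ways. Of 26 glutathione S-transferase genes 7 fell and 2 rose, GstS1 and the epsilon class gene GstE12 (0.19). GstS1, the sigma class enzyme (2R, 17093246 to 17099501), was at 26.7, 26.6 and 27.2 CPM with Ubx-WT and 6.07, 5.04 and 4.93 CPM with GFP (2.33, SE 0.0793, edgeR adjusted p = 9.27e-10), whereas the falls included delta and epsilon class genes, GstD3 (5.75, 6.06 and 5.98 CPM with Ubx-WT against 11.2, 10.2 and 11.6 CPM with GFP, -0.89), GstD5 (-1.19), GstD9 (-0.35), GstE8 (-0.40), GstE3 (-0.27) and GstE6 (-0.23). Cytochrome P450 genes gave 6 rises and 1 fall in 45, and the fall was lost without each library except Ubx-WT replicate 2. Cyp12e1 was at 8.82, 9.57 and 9.99 CPM with Ubx-WT and 2.73, 2.88 and 2.38 CPM with GFP (1.84), and Cyp305a1 at 3.02, 3.05 and 3.06 CPM with Ubx-WT and 0.0909, 0.204 and 0.137 CPM with GFP. The ABC transporter gene w fell, with 107, 93.7 and 98.3 CPM with Ubx-WT against 194, 206 and 243 CPM with GFP (-1.11). No source used here says whether the expression vectors carried a copy of w, whose reads would be counted with those of the cells' own gene. In central metabolism the isocitrate dehydrogenase gene Idh (0.36), Pfk of glycolysis (0.28) and Glys, which makes glycogen (0.33), rose, and the malic enzyme Men-b (-0.38) and Ogdh of the citric acid cycle (-0.35) fell. Further falls from a low level were in the innexin gene Inx7 (0.333, 0.519 and 0.496 CPM with Ubx-WT against 3.25, 3.52 and 5.64 CPM with GFP, -3.18) and laza, a lipid phosphate phosphatase (-3.86).

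Of 8437 protein-coding genes tested 9.08% rose and 8.14% fell, and the shares of noncoding genes are set beside these with no test. Of 307 long noncoding RNA genes 17 rose (5.54%) and 6 fell (1.95%), and of 111 antisense RNA genes 6 rose and 0 fell. lncRNA:noe was at 5.73, 7.04 and 6.45 CPM with Ubx-WT and 0.523, 0.586 and 0.8 CPM with GFP (3.31, SE 0.196, edgeR adjusted p = 1.85e-07), and lncRNA:CR44920 rose by 1.03. No source used here says whether the counting used strand, so reads of a noncoding gene and of an overlapping partner may be mixed. The rises of long noncoding genes numbered 10 without GFP replicate 1, GFP replicate 2 or Ubx-WT replicate 3, 7 without Ubx-WT replicate 2 and 25 without GFP replicate 3, and their falls came to 2 when GFP replicate 3 was left out and 3 when Ubx-WT replicate 3 was. The rises of antisense genes numbered 2 without GFP replicate 1, GFP replicate 2, Ubx-WT replicate 2 or Ubx-WT replicate 3.

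Called genes had a called neighbour more often than other genes did, a difference that was not tested. Of 266 rises of at least 2-fold that could be placed on the genome, 45 had an adjacent tested gene that also rose at least 2-fold (16.9%), against 5.45% of the other genes. For all rises the shares were 25.5% and 16%, and for all falls 20.2% and 14.2%. The longest run of rises was Ndg, Prx6c, CG11825, CG33474 and Prx6b (2R, 10313891 to 10425471), in which the peroxiredoxin genes Prx6b and Prx6c are close copies whose reads the counting could have split. GstS1, CG15611 and Cda9, a chitin deacetylase, formed another run of rises of at least 2-fold (2R, 17093246 to 17130334). Windows around other strong rises differed in their calls, against 16.6% of all genes called. Within 100 kb, eg had 4 rises and 2 falls among 17 other tested genes, rk had 2 rises among 7 (Ance and bgm), and the 1 tested gene near noc was elB, which rose. Gli had 1 rise and 1 fall among 7, Ca-alpha1T had 1 rise, its neighbour Nep1, among 20, the 1 tested gene near Osi6 fell, and around CBP 0 of 7 were called by edgeR (1 at an unadjusted p under 0.05, 0 by DESeq2). Several of these calls were lost without single libraries: Ku80 and Mtr4 near Gli, CG1077 near Osi6, Ance near rk, and eIF2A and lncRNA:CR43878 near eg.

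The Ubx-N51A libraries allow a direct test of single responses against the altered homeodomain. In the contrast of Ubx-N51A with Ubx-WT edgeR called 5.14% of all genes, and it shares the Ubx-WT libraries with the comparison above, so values are given side by side for genes already described. Gli averaged 4.39 CPM with Ubx-N51A, 36.5 CPM with Ubx-WT and 4.4 CPM with GFP, and the contrast was -3.04 (edgeR adjusted p = 6.61e-11). noc averaged 0.935 CPM with Ubx-N51A, 6.57 CPM with Ubx-WT and 0.243 CPM with GFP (-2.80, edgeR adjusted p = 2.55e-08). Kal1 lay in between, at 44.2 CPM with Ubx-N51A, 66.2 CPM with Ubx-WT and 15.8 CPM with GFP (-0.57, edgeR adjusted p = 0.000718). Socs36E averaged 52.8 CPM with Ubx-N51A, 53.4 CPM with Ubx-WT and 146 CPM with GFP, and the contrast of -0.01 did not pass (edgeR adjusted p = 0.957). For upd1 it was -0.60 (edgeR adjusted p = 0.691), for pirk 0.15 (0.512) and for nop5 0.07 (0.565), and none of these passed. The aquaporin gene Prip ran the other way, at 9.03 CPM with Ubx-N51A, 1.09 CPM with Ubx-WT and 0.37 CPM with GFP (3.06, edgeR adjusted p = 4.42e-09).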

How the data were processed

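Per the file headers and labels, each deposited file holds raw read counts per FlyBase gene for 1 library, which the authors made from 75 bp single-end directional reads. The submitters' processing notes name STAR, HTSeq, Trimmomatic 0.36 and FastQC, then DESeq2 and DESeq, and the builds dm6 and BDGP6; no source used here states the settings, the strand option or the annotation release. Of 17559 genes 17253 matched a symbol in the Ensembl 115 annotation of BDGP6.54, which gave positions, spans and exon lengths. The 5 summary rows of each file (reads outside genes 1.5% to 2.27%, ambiguous 3.11% to 3.32%, several alignments 3.26% to 5.05%) stayed out of library sizes and tests.

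The counts of all 9 libraries were fitted together with edgeR 4.0.16 in R 4.3.3 (filterByExpr, TMM factors from 0.971 to 1.03, glmQLFit and glmQLFTest, group as the only term; common biological coefficient of variation 5.41%). The threshold for a call was a Benjamini-Hochberg adjusted p of 0.05. The labels call the replicates independent without saying how they were kept apart, so p-values measure the spread between these libraries. Levels are TMM-scaled CPM. For genes with 1 to 3 reads over a group a ratio of summed reads with an exact binomial interval is given, and for 0 reads a lower bound; both cover counting error only. Code was tested on simulated counts.

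The comparison, gene lists and rules were chosen with earlier results of these data known. After a first look at the lists' results, entries placed in a wrong list or matched through a synonym to another gene were removed. No set test was run: lists are described by called members and median. Named genes are Ubx, Osi6, eg and Gli, the 15 largest rises and falls of at least 2 CPM in the higher group without overlap, the 10 largest changes in mean CPM each way, genes switched on or off, and per list up to 3 called members each way of at least 2 CPM. Other members named, mostly under 2 CPM or beyond the first 3, and the run and neighbour genes were chosen after their values were seen. Most examples are genes called in all 6 fits that leave out a library. Alternatives were DESeq2 1.42.0, RLE size factors, no filter, the 6 libraries alone, replicate blocks, no mitochondrial genes, an exon length offset and leaving out each library.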

Additional observations from a re-analysis of the deposited data

How the results depend on the processing

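The direction of Ubx and the calls of 224 other named genes were refitted under 14 alternatives, and 0 reversed. Without each of the 6 libraries in turn 141 of the 224 kept their call, and in every other alternative 122 did. Genes called numbered 1494 with the 6 libraries alone, 1652 with DESeq2, 1536 with RLE factors, 1842 with no filter, 1580 without mitochondrial genes and 1670 with the exon length offset. Leaving out 1 library gave 990 to 1639 calls, 569 to 828 rises and 416 to 811 falls, and a log2 fold change of Ubx of 10.48 to 12.49. With the replicate number of the titles as a block the count was 1369 (727 rises, 642 falls). Whether the samples are paired was not settled. Deviations of same-numbered libraries correlated at 0.54, 0.06 and -0.051. Ubx-WT replicate 2 correlated best with GFP replicate 3 (0.598) and at -0.647 with GFP replicate 1, so not every library matched its own number. Deviations from a mean of 3 libraries constrain each other, so these values cannot exclude pairing. The main fit, with group as its only term, leaves out variation that libraries may share across groups. A replicate block by the number in the file names, which GFP replicate 2 shares with no Ubx-WT library, gave 618 calls, 380 rises and 238 falls. Under it the falls numbered 14 in the nucleolus list, 0 among translation factors and 1 in the endoplasmic reticulum list, and the rises 3 among ion channels and 3 among cytochrome P450 genes. The share of genes over 20000 bp that rose was then 11.9%, against 1.76% under 2000 bp; the cause was not tested. The median log2 fold change of all genes lay between -0.002 and 0.008 under these settings. Depth limits genes under 1 CPM, where the median rise called was 1.66 on the log2 scale, and 3 libraries a group limit the small falls of abundant genes.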

Other observations

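Sensory receptor and odorant-binding genes were also among those tested. Of 186 olfactory, gustatory and ionotropic receptor genes counted, 31 had enough reads to test, 5 rose with Ubx-WT and 0 fell, with a median log2 fold change of 0.25. The ionotropic receptor gene Ir76a was at 37.9, 39.5 and 37.9 CPM with Ubx-WT and 31.8, 32.3 and 31.2 CPM with GFP (0.28), with no overlap between the groups, and Ir40a rose by 0.30. Or9a, an odorant receptor, rose by 1.37 at under 1 CPM. The count of rises was 3 without GFP replicate 1, GFP replicate 2, Ubx-WT replicate 2 or Ubx-WT replicate 3. Of the odorant-binding proteins Obp44a was at 2.92, 2.87 and 3.08 CPM with Ubx-WT and 0.75, 0.484 and 0.624 CPM with GFP (2.24), while Obp18a, at 5.09, 6.72 and 6.86 CPM with Ubx-WT against 7.68, 6.98 and 7.88 CPM with GFP (-0.26), did not pass the test (edgeR adjusted p = 0.116). Tetraspanins, which organise membrane proteins, gave 4 rises and 1 fall in 20, with Tsp42El at 14.2, 17.2 and 16 CPM with Ubx-WT and 11, 10.5 and 11.9 CPM with GFP (0.51).

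Genes taken from textbooks as wing and haltere targets of Ubx gave 4 rises and 2 falls in 14 tested, with a median of 0.06. These are 28.6% and 14.3%, against 8.72% and 7.83% of all genes. The rises were bi, sca, tsh (0.13) and the Dpp receptor gene tkv (0.21), and the falls Ama and dally. The list had 2 rises without GFP replicate 2 or Ubx-WT replicate 2. Apoptosis genes gave 3 rises and 2 falls in 19, the largest in the cell death gene skl (2.91, 0.523 CPM with Ubx-WT and 0.0649 CPM with GFP), and the caspase inhibitor gene Diap1 fell by 0.14, a call that most single libraries could end. The apoptosis list had 1 fall without GFP replicate 1, GFP replicate 2, GFP replicate 3 or Ubx-WT replicate 2 and 0 without Ubx-WT replicate 3. Of its members 15.8% rose and 10.5% fell, against 8.72% and 7.83% of all genes.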
